A study of Mus musculus with 2 samples.

Results

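Of the 29895 genes with values on the arrays, 39 encode components of bone morphogenetic protein (BMP) and transforming growth factor beta (TGF-beta) signaling, and these were followed here through their 59 probes. They were selected by gene name, not by their ratios, and comprised 13 ligands, the protease Bmp1, 4 secreted antagonists, 10 receptors, 7 Smad genes and 4 Id genes. RNA came from ureters of NMRI mouse embryos at E16.5 (embryonic day), dissected whole and pooled by sex, and each pool was 1 sample. Pparg-cKO embryos carried Pax2-cre/+; Pparg(fl/fl), in which a Cre transgene active in the epithelial lineage of the ureter deletes the nuclear receptor gene Pparg; controls were labelled Pparg(fl/?), with the second allele not given, and were described as littermates without Cre. The stage label of the mutant channel reads E14.5 on both arrays, against E16.5 in the titles and in the control channel.

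Both arrays were dual-color Agilent arrays on 1 slide, with 157716 probe spots each. Array 1, called the female array here, held the pools of females, and array 2, the male array, those of males, with the dyes exchanged, so that sex and dye orientation changed together and cannot be told apart. RNA A here is the sample read in red on array 1 and in green on array 2, and RNA B is the other sample. By the dye labels RNA A was the control, whereas the study's deposited fold changes and text run the other way and make it the Pparg-cKO. Signed values are therefore given as RNA A over RNA B, with no genotype attached. Pparg itself had signals of 11295 (A) and 7430 (B) on the female array and 12888 (A) and 7872 (B) on the male array. Whether its probe lies in the deleted exons was not analysed here, so it does not settle the direction. The uroplakin genes Upk3b and Upk1a, of the superficial urothelium, were lower in RNA A on both arrays, with log2 ratios of -1.67 and -1.71 (limma adjusted p = 0.0198) and of -1.42 and -1.22 (adjusted p = 0.0445). The study reports lower expression of both genes in Pparg-cKO ureters, by its arrays and by RNA in situ hybridization. Genotypes were not assigned here from measured values. Urothelial and smooth muscle markers were well above background (8 of 8 and 7 of 7 genes). With 1 pool per RNA and array, the p-values below rest on 2 arrays. Limma draws each gene's variance toward a value estimated from all tested genes. That value counted for 7.61 degrees of freedom, against 1 from the gene itself. The p-values and intervals are therefore not a measure of each gene's own spread between the arrays.

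BMPs, TGF-betas and activins are secreted dimers that bring together type I and type II receptor kinases. The receptors phosphorylate receptor-activated Smads, Smad1 and Smad5 on the BMP side and Smad2 and Smad3 on the TGF-beta and activin side, which enter the nucleus with Smad4. Noggin, chordin, gremlin and follistatin bind ligands outside the cell, and Smad6 and Smad7 inhibit the cascade from within. In the developing ureter, epithelial SHH acts on the mesenchyme, where FOXF1 and BMP4 promote smooth muscle differentiation.

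None of the 39 genes differed 1.5-fold or more with 1 direction on both arrays, and none was called by limma at an adjusted p under 0.05. For the 33 genes that reached a signal of 100 in the brighter RNA of each array, the mean log2 ratio lay between -0.37 (Bmp2) and 0.37 (Bmp5), which is 0.776-fold to 1.29-fold. Among all 14983 genes with such signals, 47 (0.314%) passed 1.5-fold with RNA A the brighter, and 69 (0.461%) with RNA B the brighter. A count of 0 among 33 is therefore near the background. Limma called 27 of 21371 genes (0.126%) with RNA A the brighter and 40 (0.187%) with RNA B the brighter. It tested 38 of the 39 genes, all with an adjusted p of 1.0. Nog was the single gene of the 38 with an unadjusted p under 0.05, against 807 of all genes tested, 1.68% with RNA A and 2.1% with RNA B the brighter.

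The intervals give a range of differences for each gene, with widths that rest largely on the variance estimated from all tested genes. Bmpr1a, with an SD of 0.002 between the arrays, had a standard error of 0.197 in limma. The 95% interval of limma had a median half-width of 0.47 log2 units over the 38 genes, with a range of 0.45 to 0.64. It lay within 1.5-fold either way for 18 genes, and within 2-fold for 37. Nog was the exception to 2-fold, with an interval from -1.07 to -0.08. A difference of 1.5-fold thus lay inside the interval of the other 20 genes, and the missing calls do not show equal levels.

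**Figure D1:**
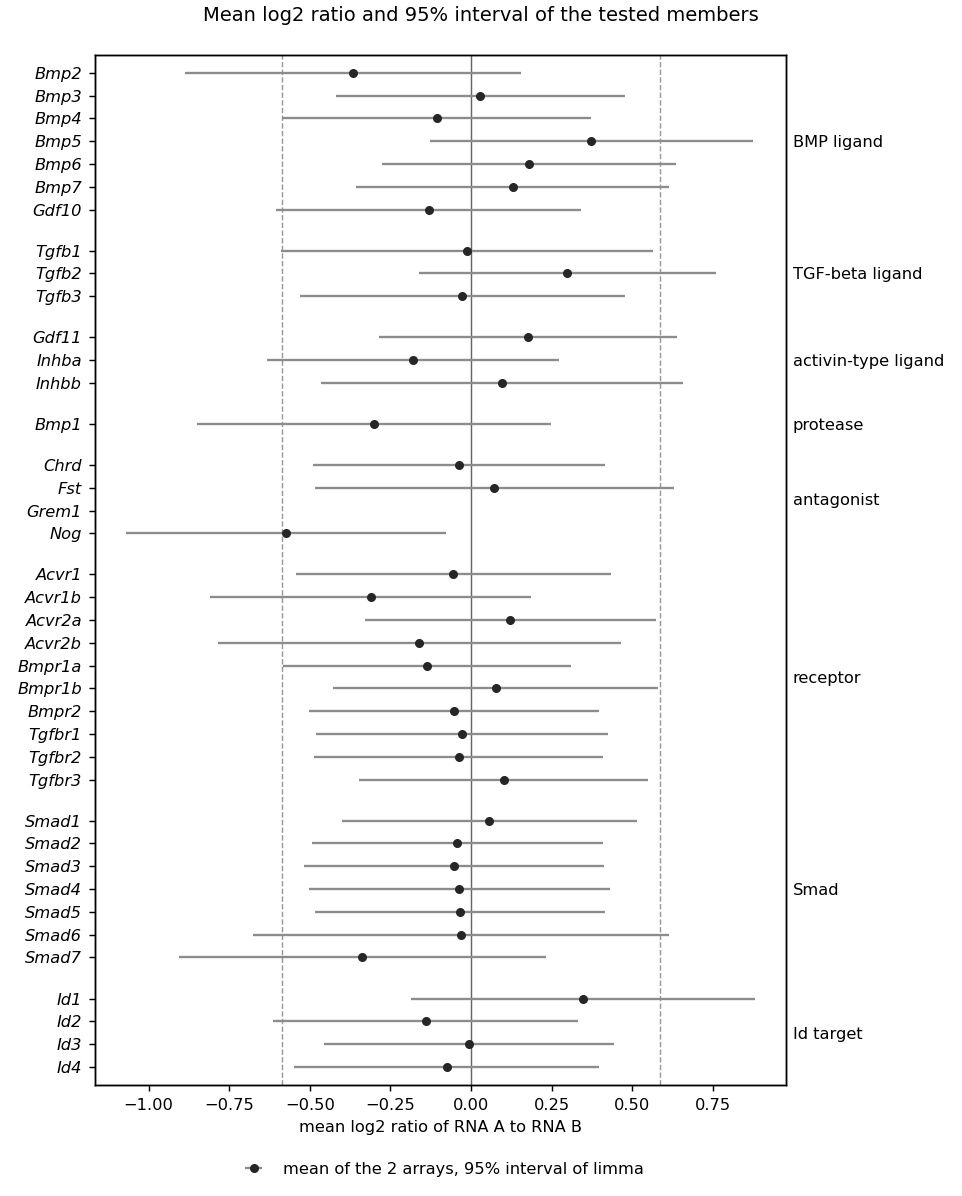
Mean log2 ratio of RNA A to RNA B (x axis) of the 38 tested genes, ordered by role, with the 95% interval of limma as bars; dashed lines mark 1.5-fold either way, and Grem1 was not tested. The interval of Nog alone leaves out 0, and no gene had an adjusted p under 0.05.

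In most of the genes the sign changed between the arrays, as it did over the whole array: among the 33 with a signal of 100 it changed in 22 (66.7%), against 64.9% of all 14983. Of the 39, RNA A was the brighter on both arrays in 6, and RNA B in 7. In 20 the sign followed the green dye, that is, RNA B was brighter on the female array and RNA A on the male array, and in 6 it followed the red dye. Among the 33 genes with a signal of 100, 18 (54.5%) were green on both arrays and 4 (12.1%) red on both, against 34.2% and 30.6% of all 14983 genes. The median log2 ratio of the 39 was -0.12 on the female array and 0.09 on the male array. Over all genes with a signal of 100 it was -0.001 and 0.019. Since the female pools carried 1 dye orientation and the male pools the other, a dye pattern and a sex pattern have the same appearance here. The correlation between arrays over the 33 genes was r = -0.23, rho = -0.32, and over all 14983 genes r = -0.19, rho = -0.38. These are descriptions across genes that share the same 2 hybridisations.

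**Figure D2:**
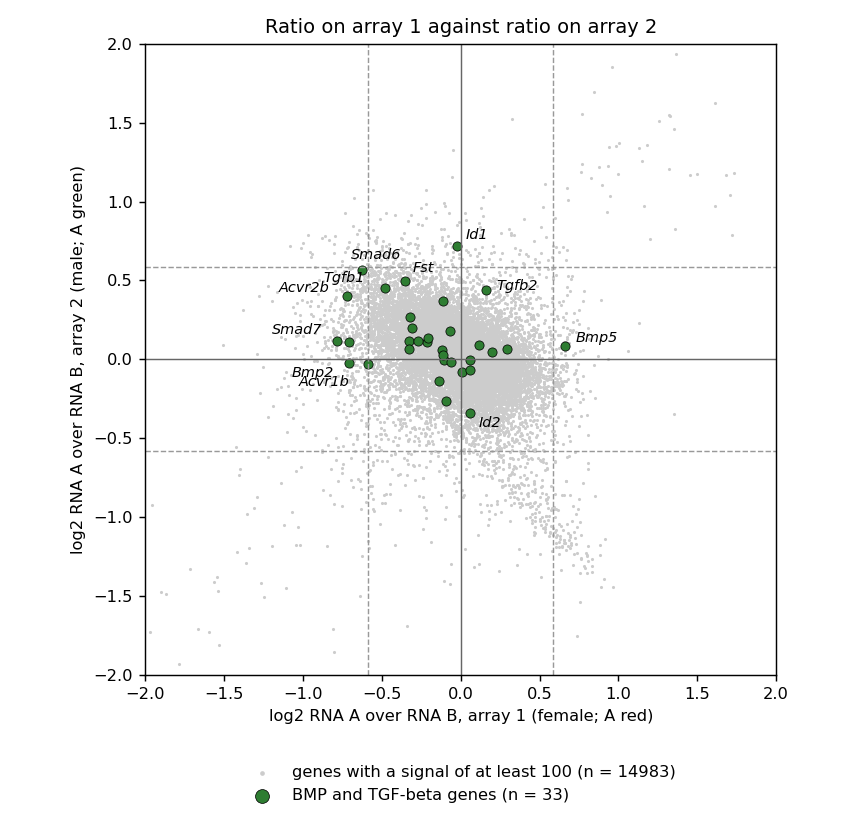
Log2 ratio of RNA A to RNA B on array 1 (x axis) against array 2 (y axis) for 14983 genes with a signal of at least 100 (gray) and the 33 BMP and TGF-beta genes among them (green); dashed lines mark 1.5-fold, and 12 genes lie outside the axes. No green point lies in the upper right or lower left corner beyond the dashed lines, and Smad6 lies just below the upper left corner.

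The ratios within an array were steady between spots. For the 42 probes of these genes with a signal of 100, the SD of the log2 ratio over the up to 4 replicate spots had a median of 0.03 and a maximum of 0.10. The SD between the arrays, over the 33 genes, had a median of 0.27. For 26 of the 33, the mean ratio was smaller than the SD between arrays. On the female array alone, a description without a test, 6 of the 33 were past 1.5-fold with RNA B the brighter, against 4.12% of the 14983 genes, and 1 with RNA A the brighter, against 1.98%. On the male array alone, RNA A was the brighter by as much in 1, against 1.77%, and RNA B in 0, against 3.09%.

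In 3 genes, Bmp1, Tgfbr1 and Acvr1, bright probes had opposite signs on both arrays. Probe sequences are shown for Bmp1 and Tgfbr1, and Acvr1 is described with the receptors. Bmp1 encodes the procollagen C-proteinase that also cleaves chordin, and Tgfbr1 encodes the type I TGF-beta receptor. The lines give the first 30 of each probe's 60 bases, 5′ to 3′, from the array design, without capitals because no element within them is singled out. Positions are those of the full probes in the array's own annotation (mm9); which exon or untranslated region they fall in was not analysed here.
Bmp1 probe 1 (chr14:70874370-70874429, minus strand): aggcccactggctcatcagccacaccaggg
Bmp1 probe 2 (chr14:70890355-70890414, minus strand): ggcccccacccagtaccgtatctccctgca
Bmp1 probe 3 (chr14:70886415-70886474, minus strand): tgtgacatttcctgttgtgaagtaaaagag
Tgfbr1 probe 1 (chr4:47427736-47427795, plus strand): tttcatcctaacactacagtagaaaatgga
Tgfbr1 probe 2 (chr4:47424946-47425005, plus strand): ctttttatctcatatgtgcagatcttgcaa
Tgfbr1 probe 3 (chr4:47395833-47395892, plus strand): tggatttccaggatgaatatgggtctctga

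Probe 1 of Bmp1, the brightest on average and the one counted for the gene, gave 2029 (A) and 3320 (B) on the female array, and 3442 and 3191 on the male array. Probe 2, farther 5′ in the gene, gave 3292 and 2081 on the female array, and 1558 and 3448 on the male array. Its log2 ratios were 0.66 and -1.15, so that it passed 1.5-fold on each array in opposite directions, the only bright probe of the 42 to do so. Probe 1, with -0.71 and 0.11, and probe 3, with -0.35 and 0.39, had the signs reversed. Over the 3 probes the sign of the Bmp1 ratio on either array therefore depended on the probe. Tgfbr1 showed the same kind of split at smaller size. Its counted probe had log2 ratios of -0.12 and 0.06, probe 2 had 0.42 and -0.28, and probe 3 had 0.30 and -0.62. The remaining Tgfbr1 probe had signals of 1.27 to 2.02, and gave no usable ratio.

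**Figure D3:**
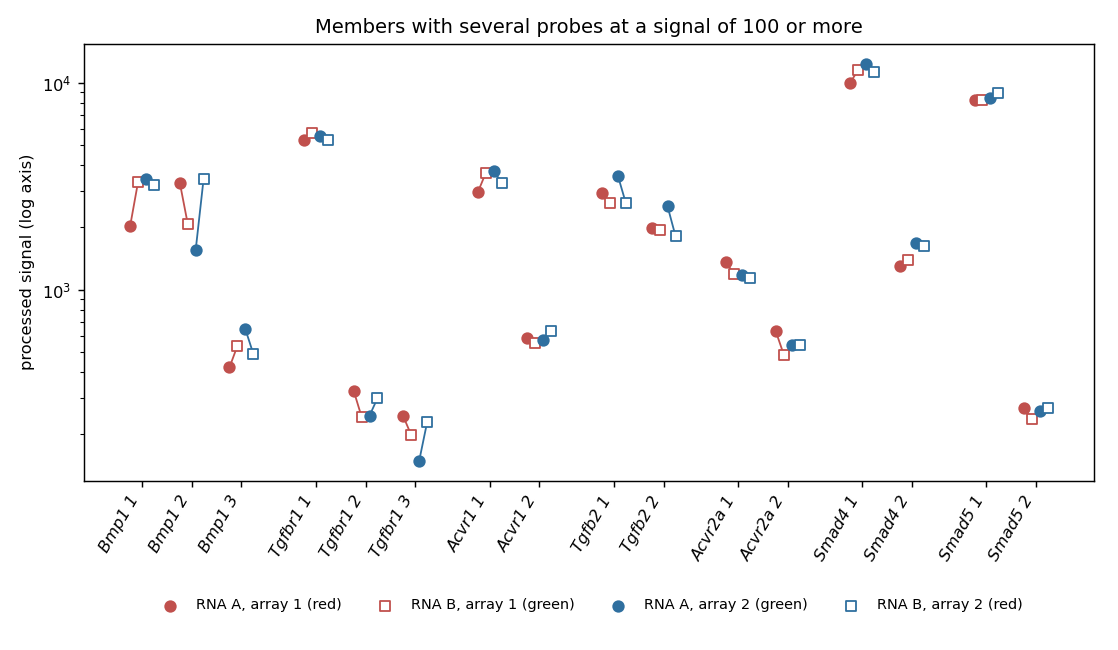
Processed signal (y axis, log scale) of each probe of the 7 genes with several probes at a signal of 100 or more; lines join RNA A (circles) and RNA B (squares) of the same array, and heights are comparable only within a probe. In Bmp1, Tgfbr1 and Acvr1 the lines of different probes slope in opposite directions on both arrays, whereas both Tgfb2 probes slope the same way.

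Signals of different probes are not comparable as levels, so each gene below is described by the ratio within its own probe. Bmp4, the mesenchymal ligand of the ureter, gave 6129 (A) and 7692 (B) on the female array, and 9974 and 9225 on the male array. The log2 ratios were -0.33 and 0.11, with a mean of -0.11 ± 0.31 (SD, n = 2 arrays) and a 95% interval from -0.59 to 0.37. RNA B was brighter in the female pools and RNA A in the male pools. A second Bmp4 probe had signals of 0.86 to 2.07 and gave no usable ratio.

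Bmp5 and Bmp2 had the largest mean ratios of the ligands, in opposite directions. Bmp5 was brighter in RNA A on both arrays, with 1160 against 734 on the female array and 976 against 921 on the male array. The log2 ratio was 0.66 on the female array and 0.08 on the male array (mean 0.37 ± 0.41, SD, n = 2), so the difference past 1.5-fold was on the female array alone. Bmp2 was brighter in RNA B, with 141 (A) and 231 (B) on the female array and 194 and 197 on the male array. Its log2 ratios of -0.71 and -0.02 were likewise carried by the female array. Bmp6 was slightly brighter in RNA A on both arrays, with log2 ratios of 0.29 and 0.07. The remaining BMP-type ligands changed sign: Bmp3 with 0.06 and -0.004, Bmp7 with -0.11 and 0.37, and Gdf10, which encodes BMP3B, with -0.33 and 0.07. Their signals ranged from 92.5 (Bmp7) to 1899 (Bmp3).

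Of the TGF-beta isoforms, Tgfb2 alone kept its direction. It gave 2922 (A) and 2615 (B) on the female array, and 3554 and 2623 on the male array, log2 ratios of 0.16 and 0.44. A second, non-overlapping Tgfb2 probe gave 0.03 and 0.48, so RNA A was brighter with both probes on both arrays. The mean of the counted probe was 0.30 ± 0.20 (SD, n = 2), and its interval from -0.16 to 0.76 included 0. Tgfb1 and Tgfb3 followed the green dye. Tgfb1 gave 89.3 and 125 on the female array and 140 and 102 on the male array, log2 ratios of -0.48 and 0.46. Tgfb3 gave 3084 and 3862, then 4210 and 3495, log2 ratios of -0.32 and 0.27. In both genes the array differences nearly cancelled, with means of -0.01 and -0.03.

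Of the activin-type ligand genes, Inhba alone reached a signal of 100. Inhba, which encodes the activin A subunit, had less signal in RNA A on both arrays, with 169 and 180 on the female array and 162 and 195 on the male array (log2 ratios -0.09 and -0.27). Inhbb, for the activin B subunit, had signals of 67.9 to 98.3 and log2 ratios of -0.34 and 0.53. Gdf11 had signals of 24.6 to 33.5 and log2 ratios of 0.02 and 0.33.

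Of the 4 antagonist genes, Fst alone reached a signal of 100, and Nog and Grem1 had signals of 2.43 to 18.4. Fst, encoding the activin antagonist follistatin, gave 626 (A) and 799 (B) on the female array, and 945 and 670 on the male array. The log2 ratios of -0.35 and 0.50 had opposite signs and a mean of 0.07 ± 0.60 (SD, n = 2). Nog, encoding noggin, gave 10.2 and 18.4 on the female array and 14.4 and 17.7 on the male array. RNA B was brighter on both arrays, by log2 ratios of -0.85 and -0.30, but the spots of this probe varied, with an SD of 0.45 on the female array. The limma test of Nog had an unadjusted p of 0.028 and an adjusted p of 1.0. Chrd, for chordin, gave 87.7 to 97.7 with log2 ratios of 0.06 and -0.13. Grem1 gave 5.62 and 15.6 on the female array and 4.96 and 2.43 on the male array, was well above background in neither RNA on both arrays, and was left out of the test.

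**Figure D4:**
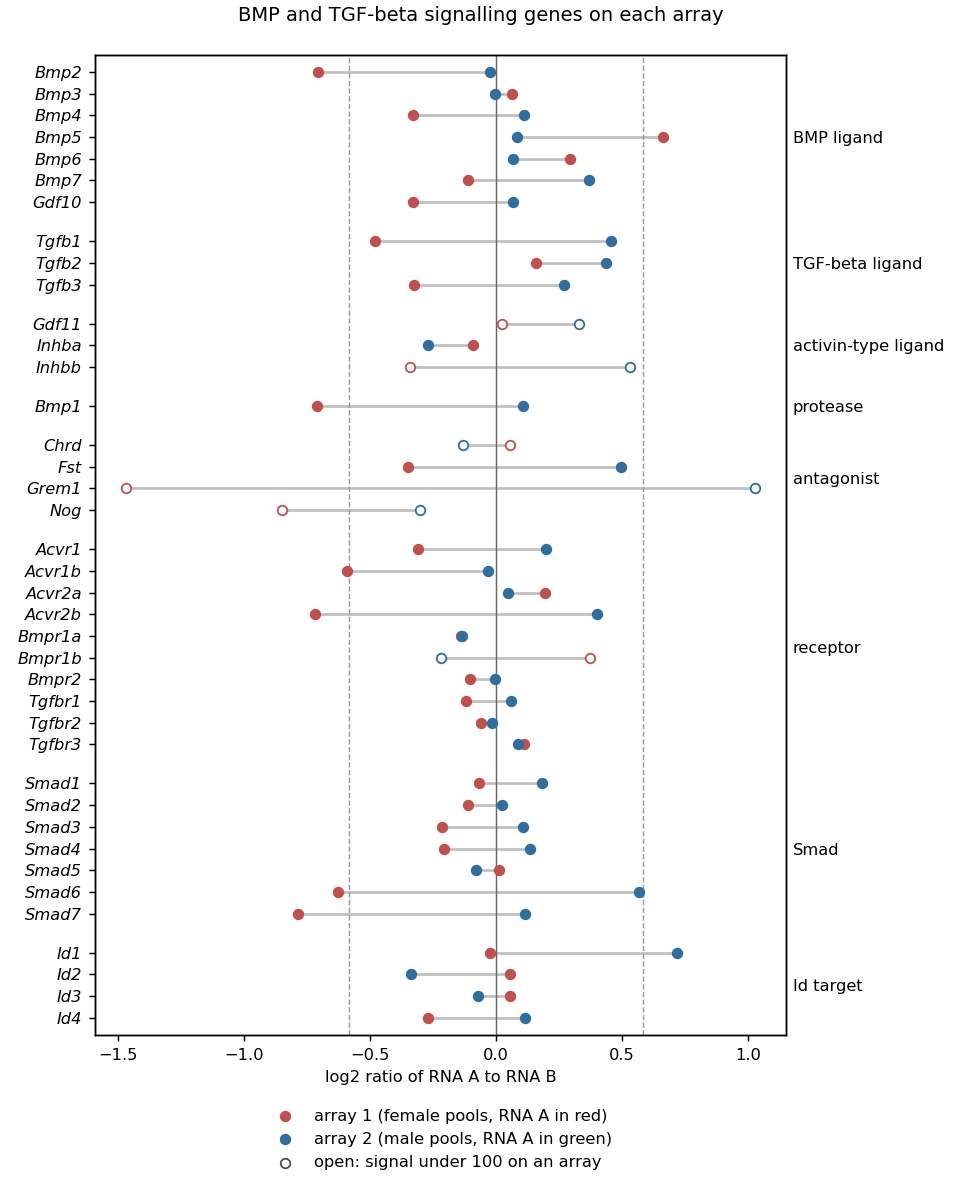
Log2 ratio of RNA A to RNA B (x axis) of the 39 genes on array 1 (red points) and array 2 (blue points), ordered by role, with gray lines joining the arrays; dashed lines mark 1.5-fold and open points have a signal under 100 on an array. Gray lines of 26 genes cross 0, with the widest gaps among bright genes in Smad6, Acvr2b and Tgfb1.

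On their counted probes, receptor genes kept their sign on both arrays in 6 of 10 cases, and their mean log2 ratios lay between -0.31 and 0.12. Among all 14983 genes with a signal of 100, the sign changed in 64.9%. Bmpr1a, the type I BMP receptor, had the smallest SD between arrays of the 39, with 6053 (A) and 6661 (B) on the female array and 5657 and 6211 on the male array. Its log2 ratios were -0.14 and -0.14, with an SD of 0.002. Bmpr2, the type II BMP receptor, had -0.11 and -0.002, and Tgfbr2, the type II TGF-beta receptor, -0.06 and -0.02. A second Tgfbr2 probe, with signals of 48.3 to 60, was brighter in RNA A on both arrays, with 0.11 and 0.095. Tgfbr3, the co-receptor betaglycan, had 0.11 and 0.09. The intervals of these genes still reached -0.58 for Bmpr1a and 0.55 for Tgfbr3.

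Among the activin receptors, the type I receptor Acvr1b gave 838 and 1261 on the female array and 1114 and 1139 on the male array, log2 ratios of -0.59 and -0.03. Its second probe, with signals of 66.4 to 95.8, was likewise brighter in RNA B, with -0.30 and -0.52. The interval of the counted probe was -0.81 to 0.19. Acvr2b, a type II receptor, gave 803 and 1323 on the female array and 1280 and 970 on the male array. Its log2 ratios of -0.72 and 0.40 followed the green dye and were 1.12 log2 units apart. Acvr2a, the other type II receptor, had 0.20 and 0.05, and Acvr1, a type I receptor for BMPs, had -0.31 and 0.20. A second bright Acvr1 probe had 0.07 and -0.14, with the signs reversed. A second bright Acvr2a probe changed sign, with 0.37 and -0.01. Bmpr1b, with signals of 76 to 110, had 0.37 and -0.22.

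On their counted probes, the 7 Smad genes changed sign between the arrays without exception. Green was brighter on both arrays in 6 of them, and red in Smad5. The receptor-activated Smads had small ratios. Smad1 had log2 ratios of -0.07 and 0.18, Smad2 -0.11 and 0.02, Smad3 -0.21 and 0.11, and Smad5 0.01 and -0.08. Smad4, the common partner, gave 10037 and 11590 on the female array and 12359 and 11243 on the male array, log2 ratios of -0.21 and 0.14, and its second probe had -0.10 and 0.05. For these 5 genes the intervals lay between -0.52 and 0.52.

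The genes for both inhibitory Smads, which are themselves induced by the pathway, had larger ratios on the female array. Smad6 gave 858 (A) and 1326 (B) on the female array, and 1721 and 1161 on the male array. The log2 ratios were -0.63 and 0.57, 1.196 log2 units apart, and the mean was -0.03 ± 0.85 (SD, n = 2). The female array passed 1.5-fold and the male array fell just short of it. Spots of this probe had SDs of 0.01 and 0.03, so the gap lay between the arrays and not within them. Smad7 gave 1038 and 1791 on the female array and 1635 and 1511 on the male array, log2 ratios of -0.79 and 0.11. Its mean of -0.34 ± 0.64 (SD, n = 2) had an interval from -0.90 to 0.23. Opposite signs at 1.5-fold or more on both arrays were seen in 129 of the 14983 genes with a signal of 100 (0.861%), and in none of the 33.

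At 1.2-fold, none of the 33 genes kept its direction on both arrays, against 199 (1.33%) of the 14983 with more signal in RNA A and 263 (1.76%) with more in RNA B. In 5 genes, Tgfb1, Tgfb3, Acvr2b, Fst and Smad6, green was brighter by at least 1.2-fold on both arrays. The share was 15.2% of 33, against 1059 of 14983 genes (7.07%). Red was brighter by as much in none of the 33, against 540 genes (3.6%). The 1.2-fold level was one of the settings tried around the main one, and the 5 genes are described without a test.

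The Id genes, direct targets of BMP signaling that encode inhibitors of bHLH factors, had no common direction. Id1 gave 13274 (A) and 13508 (B) on the female array, and 20540 and 12477 on the male array. The log2 ratios were -0.03 and 0.72, so the difference stood on the male array alone, where it was past 1.5-fold. Id2 gave 27018 and 25965, then 25579 and 32325, log2 ratios of 0.06 and -0.34. Id3 had 0.06 and -0.07 and Id4 -0.27 and 0.12. Id1 and Id2 thus had opposite signs on the male array, and the intervals of all 4 genes included 0.

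Promoter sequence was examined because Smad6, Smad7 and Id genes respond to Smads directly. In RefSeq promoter windows (GRCm38.p6, 250 bases before to 50 after the start), 27 of the 39 genes were found. Searched on both strands, the palindrome GTCTAGAC, of which GTCT is contained in either strand, was found in 1 of the 27, Smad6, and in 67 of 27025 genes (0.248%). The 6-base BMP-type element GGCGCC was found in 10 of the 27 (37%), Id2 and Id4 among them, against 13.4% of all genes. GTCT alone was found in 23 of the 27 (85.2%), against 89.5%. These shares were not tested, and the promoters compared were not matched for base composition. Neither Smad7 nor Id1 was among the matches to any motif. That does not show that they lack the motifs, since genes without a window were not searched. The Smad6 window is printed from 250 bases before to 30 after the start, chr9:64022030-64022309 on the minus strand, with the palindrome in capitals. It is shown because Smad6 had the widest gap between arrays of the bright genes and the rarest of these motifs. A match describes the letters and not a binding site.
Smad6: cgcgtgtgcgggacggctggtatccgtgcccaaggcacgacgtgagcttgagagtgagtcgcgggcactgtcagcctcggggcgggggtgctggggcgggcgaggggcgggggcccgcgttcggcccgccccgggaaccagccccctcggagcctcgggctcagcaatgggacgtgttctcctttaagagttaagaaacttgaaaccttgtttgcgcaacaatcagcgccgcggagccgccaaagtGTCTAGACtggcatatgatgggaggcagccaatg

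Other genes were taken from lists of pathway ligands, receptors, regulators and targets, and of the SHH and FOXF1 axis upstream of Bmp4. These were 90 genes, of which 88 had values and 57 a signal of 100. None passed 1.5-fold with an equal sign on both arrays, and limma called none of the 82 tested, with a lowest adjusted p of 0.0742, for Shh. The median of the mean log2 ratio was -0.01 over these genes, -0.04 over the 39, and 0.002 over all genes with a signal of 100. Col1a1, a collagen gene induced by TGF-beta, was the 1 gene past 1.5-fold in opposite directions, with log2 ratios of -0.80 and 0.67. In 5 of the 7 lists, those of the other ligands, receptors, extracellular and intracellular regulators and TGF-beta targets, the median was below 0 on the female array (-0.21 to -0.14) and above 0 on the male array (0.11 to 0.24).

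An unadjusted limma p under 0.05 was found in 11 of the 82 genes tested. RNA B was the brighter in 10 of them (12.2%, against 2.1% of all 21371 genes) and RNA A in 1 (1.22%, against 1.68%). The 10 included Shh, Gli1, Hhip and Foxf1 of the SHH and FOXF1 list, and Tagln, also a smooth muscle marker. The 12.2% is thus not a share of BMP and TGF-beta genes alone. Several lists were chosen with earlier results known, and these shares were not tested. Among the 10 were also antagonists of BMPs at low signal. Crim1, encoding a transmembrane BMP-binding protein, gave 17 (A) and 34.6 (B) on the female array, and 21.7 and 35.1 on the male array, log2 ratios of -1.02 and -0.69. Chrdl2, a chordin-like gene, had log2 ratios of -0.67 and -0.56 at signals of 19.8 to 31.5. In both genes, as in Nog, RNA B was brighter on both arrays, all with signals under 100 and with adjusted p-values in limma of 0.294 (Crim1), 0.721 (Chrdl2) and 1.0 (Nog). Gdf5 was the 1 gene of the 11 brighter in RNA A, with log2 ratios of 0.30 and 0.73.

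The SHH and FOXF1 axis, which lies upstream of Bmp4 in the ureter, was mostly brighter in RNA B, whereas the Bmp4 ratio changed sign. The 5 genes of the axis had a median log2 ratio of -0.60 on the female array and -0.70 on the male array. In 4 of the 5 RNA B was the brighter on each array, against 15.9% of all 14983 genes with a signal of 100. Shh gave 36.5 (A) and 75.5 (B) on the female array, and 33.7 and 87.3 on the male array, under the signal of 100. The study reports lower Shh expression in Pparg-cKO ureters on its arrays at both fetal stages, and its loss by RNA in situ hybridization. Foxf1 gave 1360 and 2847, then 2589 and 3352, log2 ratios of -1.07 and -0.37. Hhip and Gli1, targets of SHH, had log2 ratios of -0.57 and -0.70, and -0.60 and -0.42. Ptch1, the SHH receptor gene and another target, was the exception, with signals of 272 (A) and 268 (B) on the female array and 234 and 426 on the male array, log2 ratios of 0.02 and -0.86. The adjusted p-values in limma were 0.0742 for Shh, 0.708 for Foxf1, 0.657 for Hhip and 1.0 for Gli1 and Ptch1. Msx2, a BMP target, also had more signal in RNA B on each array, by -0.62 and -0.35 with signals of 386 to 648. Whether the ratio of Bmp4 differed from those of Shh or Foxf1 was not tested.

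**Figure D5:**
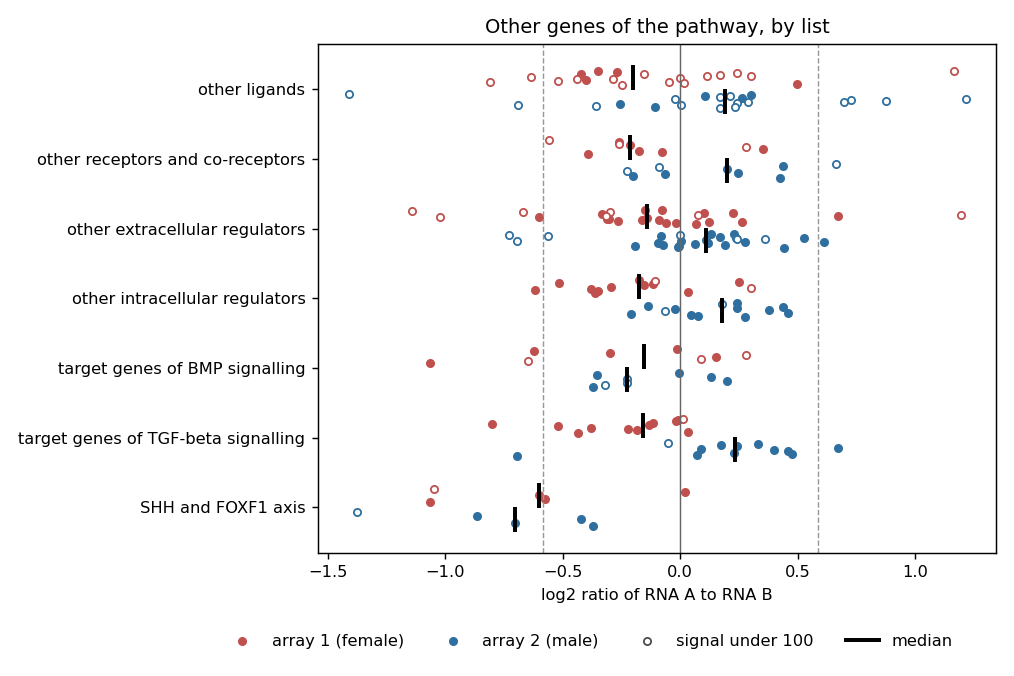
Log2 ratio of RNA A to RNA B (x axis) of the other pathway genes on array 1 (red) and array 2 (blue), by list, with black bars at the medians; open points have a signal under 100 on an array and dashed lines mark 1.5-fold. The SHH and FOXF1 list has medians below 0 on both arrays, at -0.60 and -0.70, whereas the medians of 5 of the other 6 lists change sign.

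Markers of muscle and urothelium, which make up the ureter wall, were mostly brighter in RNA B. The smooth muscle list had a median log2 ratio of -0.44 on the female array and -0.69 on the male array, with RNA B the brighter on both arrays in 6 of 7 genes and summed signals of 73776 to 77447 (A) and 98639 to 129071 (B). The urothelial list had -0.57 and -0.70, with 5 of 8 brighter in RNA B on both, and sums of 57028 to 57294 and 90671 to 93208. These 5 were the uroplakin genes. Of the sums, Upk3a alone gave 32480 (A) and 50577 (B) on the female array. The basal cell marker Krt5 was brighter in RNA A on both arrays (0.26 and 0.67). Trp63 (-0.308 and 0.098) and Cdh1 (-0.588 and 0.155) changed sign. The ureteric mesenchyme list stood at 0.001 and -0.07. Fewer cells of a type and less RNA per cell cannot be told apart in such pools, and the part of tissue composition in the ratios above was not tested. Limma called Upk1a and Upk3b of the urothelial list and no muscle marker. Of 6 nephron markers 3 were tested, with sums of 228 to 238 (A) and 342 to 381 (B) and medians of -0.68 and -0.33 over the 6. Slc34a1, a transporter gene of the proximal tubule, had 6.2 (A) and 30.8 (B) on the female array and 4.2 and 37.2 on the male array (limma adjusted p = 0.012), and was well above background in RNA A on 1 of the 2 arrays. Of the collecting duct list, Fxyd4 passed 1.5-fold with RNA A the brighter on each array, with log2 ratios of 0.77 and 1.56 (limma adjusted p = 0.153).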

How the data were processed

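Ureter RNA was hybridized to 2 dual-color arrays, and the authors scanned them with Agilent Feature Extraction 10.7.3.1, whose background-subtracted, dye-normalized processed intensities are in the deposited scanner files (positions from mm9). Deposited log10 ratios were used only to check that red over green was their direction. The series table holds signed fold changes of the authors, treated as a score and used as an alternative. Members and lists were chosen with earlier results of these data known.

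Per array, 5579 to 5705 flagged spots of 157716 were left out, none was saturated, and 70.4% (red) to 80.4% (green) were well above background. Log2 processed signals were averaged over the remaining spots of a probe, and of several probes per gene the one with the highest average over both RNAs and arrays was used. The median log2 ratio of all probes was 0.045 and -0.018, and no further scaling was applied. Genes had to reach a signal of 100 in the brighter RNA and 1.5-fold on both arrays, as in the study's methods. Limma 3.58.1 in R 4.3.3 (lmFit, eBayes, Benjamini-Hochberg) tested 21371 genes. In each, at least 0.5 of the spots were well above background in the same RNA on both arrays. The code was also run on simulated ratios that held no dye or sex component, so that run does not bear on the calls made here. Alternatives were normexp (offset 50) with loess, loess on processed signals, median centring, the mean over probes, the authors' table, other thresholds, an intensity trend, no filter, and each array alone. The number of arrays limits the precision. Genes named are all 39 members and pathway genes past a threshold; those with an unadjusted p under 0.05, and values shown for contrast, were chosen after their values were seen. RefSeq accessions matched 52 of the 59 probes, with the same symbol in 52. Plots were made with matplotlib.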

Additional observations from a re-analysis of the deposited data

Results flagged for a closer look

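In 5 of the 33 genes with a signal of 100, the ratio of RNA A to RNA B was below 1 for females and above 1 for males, by at least 1.2-fold in each. The log2 ratio of Tgfb1 was -0.48 in females and 0.455 in males, and that of Tgfb3 was -0.324 and 0.269. Acvr2b had -0.72 and 0.401, Fst had -0.351 and 0.496, and Smad6 had -0.628 and 0.567. Each sex had 1 pool of either RNA, so that the gap between females and males was not tested. In each of the 5 the brighter sample carried the green dye on both arrays, and sex and dye orientation cannot be told apart.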

How the results depend on the processing

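The count of members past 1.5-fold in the same direction stayed at 0 under every alternative that used both arrays, and limma called 0 members under each of its alternatives (1 of 38 had an unadjusted p under 0.05 in the main setting). Limma called 27 and 40 of all genes in the main setting. With a fold of 1.2 in place of 1.5, 5 members passed in opposite directions, and with well above background in place of the signal of 100, 1 did, Grem1. With 1 array alone, a value with no test, 1 member was past 1.5-fold as brighter in RNA A without replicate 1 (Id1) and 1 without replicate 2 (Bmp5), and between 0 and 6 as brighter in RNA B; the 6, all on the female array, were Bmp1, Bmp2, Acvr1b, Acvr2b, Smad6 and Smad7 (6 of 33, against 4.12% of all 14983 genes). The median log2 ratio of the members, -0.036, lay between -0.05 and -0.031 under the alternatives with both arrays, and was 0.088 without replicate 1 and -0.118 without replicate 2. Averaging over probes changed the sign of the mean in 5 members, all within 0.1 log2 units of 0 in the main setting (Tgfbr2, Acvr1, Chrd, Smad1 and Smad5). No paired analysis was possible because each ratio already compares both RNAs of 1 array and there is 1 group of arrays. Signals under 100 limit the ratios of 6 members, and those of Nog and Grem1 lay near background.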
